A study of Mus musculus with 2 samples.

Results

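Genes of hormone-sensing luminal cells were compared between the mammary glands of Gata3 het and null mice. These are the estrogen receptor-positive cells of the inner, luminal layer of the mammary epithelium. The genes, listed by name, were Esr1, Pgr, Foxa1, Wnt4, Tnfsf11, Cited1, Tph1, Xbp1, Greb1 and Tbx3. Every array feature annotated to them was taken, which gave 13 features for 10 of 10 genes, out of 38976 features and 15056 named genes on the array. Esr1 had 2 features, Greb1 had 3 and the other 8 genes had 1 each.

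The design compared adult mice that were heterozygous for a floxed Gata3 allele (GATA-3flox/+; WAP-rtTA-Cre, here het) with mice that had both alleles floxed (GATA-3flox/flox; WAP-rtTA-Cre, here null). Both genotypes carried WAP-rtTA-Cre and received doxycycline for 5 days, so the het gland is a control that could itself lose 1 allele. The WAP promoter is that of the whey acidic protein gene, which is active in luminal cells that make milk proteins. The labels do not state what share of luminal cells had deleted Gata3. Whole-gland RNA was hybridised to 2 spotted oligonucleotide arrays in the same dye orientation, het in Cy5 and null in Cy3, without a dye swap. Whether the arrays represent different animals is not stated, so p-values rest only on the spread between 2 arrays, which may be technical. The test draws that spread largely from all features or genes together, and not from each alone.

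Each value is a log2 ratio of the channels of 1 array. Neither the numerator channel nor the base of the logarithm, read here as 2, is stated in the labels. If Cy5 was the numerator, a positive ratio stands for a higher level in the het gland, and if Cy3 was, for a higher level in the null gland. Signs below are those of the deposited values and carry no genotype direction. A dye bias of a probe and a genotype difference cannot be told apart in this design. Since whole glands were used, fewer cells of a type and less RNA per cell cannot be told apart either. The values are ratios and not levels, so the presence of luminal cells could not be checked from marker levels.

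Hormone-sensing luminal cells are the mammary cells that respond directly to estrogen and progesterone. In the mouse, they hold the receptors Esr1 and Pgr and pass the hormone signal to neighbouring progenitor and basal cells through secreted factors, among them Wnt4 and the cytokine RANKL, encoded by Tnfsf11. GATA-3 and FOXA1 are transcription factors of the luminal lineage, and in human breast cancer cells both act together with the estrogen receptor on chromatin.

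The ratios of these genes lay on both sides of 0, and none of them passed the test against 0 across the array. Wnt4 had the most negative mean (-0.88) and Esr1 the most positive (0.60 over its features). Wnt4, Tph1, Cited1, Tbx3 and Xbp1 were negative on both arrays, Esr1 as the mean of its features was positive on both, and Pgr, Foxa1, Tnfsf11 and Greb1 had opposite signs. So 5 of 10 genes were negative on both arrays, where 34.1% of all genes were, and 1 of 10 was positive on both, where 33.7% of all genes were. Opposite signs were found for 4 of 10 genes and for 32.0% of all genes. Of the 13 features, 5 were negative on both arrays (34.8% of all features), 1 was positive on both (30.7%) and 7 had opposite signs (34.3%). With so few genes these shares were not tested, and they are given as a description.

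The ratios were tested against 0 with limma, with p-values adjusted by Benjamini-Hochberg across the whole array and called under 0.05. Of the 13 features 0 passed, as did 0% of all 38976 features. After the features of a gene were averaged, 0 of the 10 genes passed, where 8.26% of all 15056 genes did, 7.28% with positive and 0.983% with negative ratios. At an unadjusted p under 0.05 there were 2 of 13 features, those of Wnt4 and the second of Esr1, against 22.0% of all features. There were 3 of 10 genes, Esr1, Wnt4 and Tph1, against 23.8% of all genes. None of the 13 features was at least 2-fold from 0 with the same sign on both arrays, where 2.40% of all features were. At an unadjusted p the share of members was thus near that of the whole array for genes and below it for features.

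**Figure D1:**
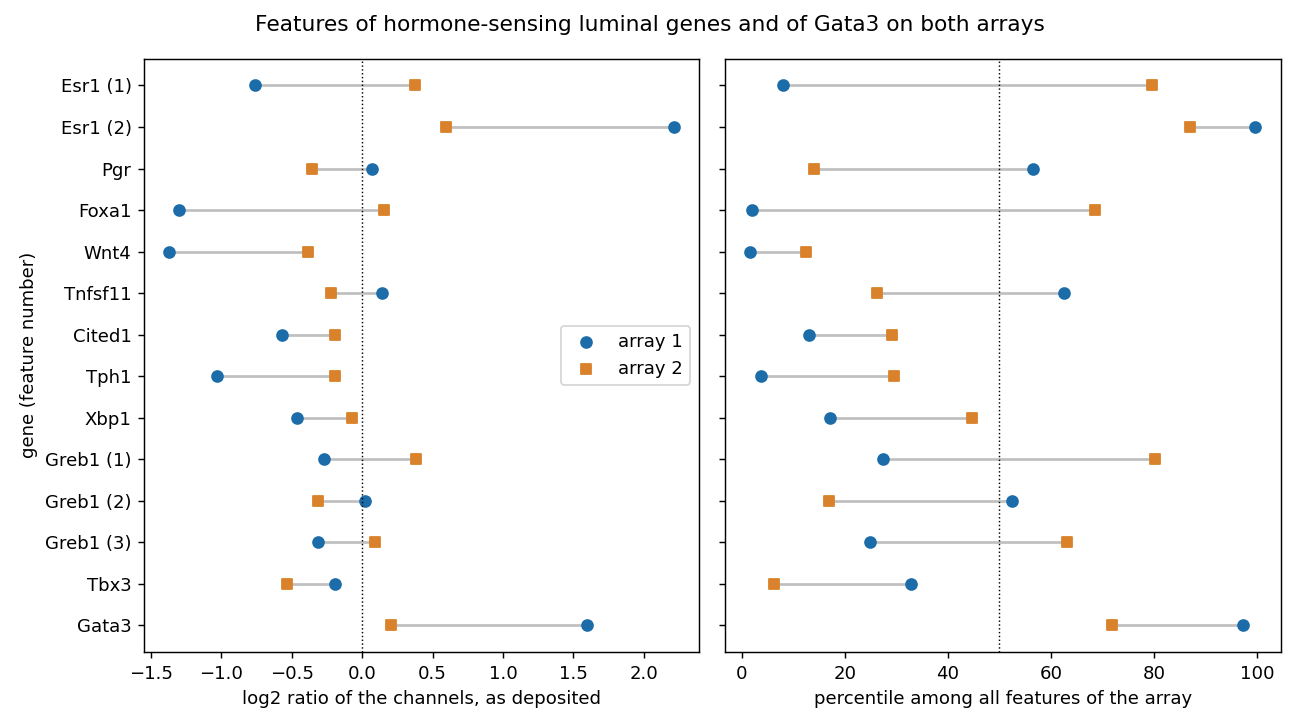
Log2 ratio (left) and percentile among all features of the same array (right) for each feature of the hormone-sensing genes and of Gata3, with array 1 as circles, array 2 as squares and a grey line joining them. The second Esr1 feature stood at percentile 99.7 (array 1) and 87.0 (array 2), while Foxa1 moved from percentile 1.95 to 68.5.

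Gata3, the deleted gene, was measured by 1 feature, with ratios of 1.60 (array 1) and 0.20 (array 2). Its mean of 0.90 ± 0.98 (SD, n = 2) did not pass the test over features (limma, adjusted p = 0.188) or over genes (limma, adjusted p = 0.156). The position of its probe relative to the floxed part of the gene is not stated in the labels or the annotation, so the feature does not settle the direction of the ratios. The arrays themselves differed in width, with an SD over all features of 0.67 on array 1 and 0.44 on array 2, and medians of -0.00 and -0.03. The Pearson correlation of the arrays across all features was 0.587, a description over features that share the same RNA, dyes and arrays. Positive ratios on both arrays were frequent among genes of olfactory receptors, the odorant receptors of the nose, where 64.7% of 844 genes had them and 242 passed the gene test with a positive ratio (28.7%). The medians of those genes were 0.51 and 0.42. They are given beside the positive ratios of Gata3 and the second Esr1 feature here, and of Esr2 and Fzd1 further on, and their relation to these was not tested.

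Of the receptor genes, Esr1 encodes estrogen receptor alpha, the receptor through which estrogen drives growth of the mammary ducts. Its first feature gave -0.76 on array 1 and 0.37 on array 2, and its second gave 2.22 and 0.59. The second feature was high on both arrays, 4.65-fold and 1.51-fold from an equal ratio, and the first had opposite signs. The second feature averaged 1.41 ± 1.15 (SD, n = 2), with a limma 95% interval from 0.49 to 2.32, and it did not pass over all features (limma, adjusted p = 0.0833). The first feature averaged -0.19 ± 0.80 (SD, n = 2; limma, adjusted p = 0.796).

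The platform annotation gives the same transcript for both Esr1 features, and their probe sequences were not used here. The second feature exceeded the first by 2.98 on array 1 and by 0.22 on array 2. Over the 3598 genes with 2 features, the median absolute difference between features was 0.51 on array 1 and 0.35 on array 2. The Esr1 difference stood at percentile 99.7 of these genes on array 1 and at percentile 34.7 on array 2. Its mean was 1.60 ± 1.95 (SD, n = 2), and with 2 arrays the smallest p that an exact sign-flip test can give is 0.5. The mean over features, 0.73 on array 1 and 0.48 on array 2, was nearly equal between the arrays although neither feature was. As a gene, Esr1 had a mean of 0.60 ± 0.17 (SD, n = 2), with an interval from 0.17 to 1.04, and did not pass over all genes (limma, adjusted p = 0.0984). It passed when the arrays were scaled to equal median absolute deviation (limma, adjusted p = 0.0486), which sets them to a common width by construction.

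Pgr, the progesterone receptor gene, is induced by estrogen in mammary epithelium and is needed for side branching and alveolar development. Its ratios were 0.07 (array 1) and -0.36 (array 2). The first lies at percentile 56.6 of array 1 and the second at percentile 14.0 of array 2. The mean was -0.15 ± 0.30 (SD, n = 2), with a limma 95% interval from -0.66 to 0.37, so a change of up to 0.66 on the log2 scale in the negative direction stays inside it (limma over features, adjusted p = 0.784). As means over features and arrays, Esr1 and Pgr thus had opposite signs, and neither passed. The first Esr1 feature averaged -0.19, the same sign as Pgr, and the Pgr ratios themselves differed in sign between the arrays.

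Foxa1 encodes a pioneer factor that opens chromatin for the estrogen receptor, and it has been reported as a target of GATA-3. Array 1 gave a ratio of -1.30 and array 2 0.15. Array 1 put the feature among the lowest of the array, at percentile 1.95, and array 2 at percentile 68.5. The difference between the arrays, 1.46, was larger than that of 98.3% of all features. The mean of -0.57 ± 1.03 (SD, n = 2) was smaller than its SD, and Foxa1 did not pass over features (limma, adjusted p = 0.421) or over genes (limma, adjusted p = 0.372). Its sign was opposite to that of Gata3 on array 1 and the same on array 2.

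The start regions of the genes are shown for Foxa1, reported as a GATA-3 target, and for the members whose window holds a GATA hexamer. The sequences are from RefSeq on build GRCm38.p6 and run from 250 bases before to 50 bases after an annotated gene start, 5′ to 3′ on the strand of the gene. Capitals mark matches on either strand to a GATA hexamer (AGATA or TGATA, followed by A or G), to a forkhead heptamer (TGTTTAC, or the variant spelled TGTTTGC), or to the estrogen receptor hexamer AGGTCA. Windows were found for 9 of the 10 genes, 14 windows in all, since some genes have several starts.
Foxa1, chr12:57546062-57546361, minus strand: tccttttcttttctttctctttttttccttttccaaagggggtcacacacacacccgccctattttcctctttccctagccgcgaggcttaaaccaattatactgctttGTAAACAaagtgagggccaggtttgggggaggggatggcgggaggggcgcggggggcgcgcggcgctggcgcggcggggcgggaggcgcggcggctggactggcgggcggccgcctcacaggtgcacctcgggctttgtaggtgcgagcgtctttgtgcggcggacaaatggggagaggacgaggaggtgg
Esr1, chr10:4611739-4612038, plus strand: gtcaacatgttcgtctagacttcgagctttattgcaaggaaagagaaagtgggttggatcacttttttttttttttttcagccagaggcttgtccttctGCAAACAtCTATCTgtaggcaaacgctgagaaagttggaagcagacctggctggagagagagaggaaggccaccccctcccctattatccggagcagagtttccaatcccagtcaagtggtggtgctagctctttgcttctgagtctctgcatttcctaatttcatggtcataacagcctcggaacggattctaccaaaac
Pgr, chr9:8899583-8899882, plus strand: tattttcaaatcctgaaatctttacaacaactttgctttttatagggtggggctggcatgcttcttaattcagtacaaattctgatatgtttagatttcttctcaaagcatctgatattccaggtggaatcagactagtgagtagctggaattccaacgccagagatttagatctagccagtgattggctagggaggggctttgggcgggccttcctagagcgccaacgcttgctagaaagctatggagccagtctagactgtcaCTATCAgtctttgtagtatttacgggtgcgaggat
Tph1, chr7:46672488-46672787, minus strand: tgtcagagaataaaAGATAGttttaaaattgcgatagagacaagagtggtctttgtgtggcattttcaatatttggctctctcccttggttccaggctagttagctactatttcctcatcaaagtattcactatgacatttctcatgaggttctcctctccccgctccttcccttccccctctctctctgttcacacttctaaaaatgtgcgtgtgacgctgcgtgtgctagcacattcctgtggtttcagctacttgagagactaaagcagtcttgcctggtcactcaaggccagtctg
Greb1, chr12:16757190-16757489, minus strand: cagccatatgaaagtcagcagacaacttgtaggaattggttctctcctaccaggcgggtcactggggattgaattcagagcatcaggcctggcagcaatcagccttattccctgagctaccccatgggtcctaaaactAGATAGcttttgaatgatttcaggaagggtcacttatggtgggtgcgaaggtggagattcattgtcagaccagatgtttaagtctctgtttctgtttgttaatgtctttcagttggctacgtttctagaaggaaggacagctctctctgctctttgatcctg

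The Foxa1 window holds no GATA hexamer and 1 forkhead match on the opposite strand, which begins 141 bases before the start. In the Esr1 window a forkhead match and a GATA match, AGATAG on the opposite strand, are separated by a single base, and the GATA match begins 143 bases before the start. The Pgr match, TGATAG on the opposite strand, begins at base 16 of the transcribed part. Tph1 has AGATAG 236 bases and Greb1 AGATAG 112 bases before the start, both on the strand of the gene. These windows are those of 1 of 2 annotated starts each for Esr1, Tph1 and Greb1. GATA hexamers were present in 4 of the 14 windows, against 29.8% of all 32851 windows of this length in the table. The estrogen receptor hexamer was in 3 of 14 windows, 1 each of Cited1, Tph1 and Greb1 and none of them printed above, against 16.3% of all. Forkhead heptamers were in 2 of 14 against 8.48%. These matches are descriptions of the letters in the windows and no binding was measured.

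Among the other nuclear factors, Cited1 encodes a transcriptional coactivator that binds the estrogen receptor and no DNA of its own. It had ratios of -0.57 and -0.19, which average to -0.38 ± 0.27 (SD, n = 2; limma over features, adjusted p = 0.365). Tbx3, a T-box transcription factor needed for mammary placode formation in the mouse, had ratios of -0.20 (array 1) and -0.53 (array 2). Tbx3 was the lowest of the 13 features on array 2, at percentile 6.24 of that array, and stood at percentile 32.8 on array 1. Its mean was -0.36 ± 0.24 (SD, n = 2; limma over features, adjusted p = 0.386). It was the only feature negative on both arrays with the larger size on array 2. Both factors were therefore negative on each array by less than 2-fold, without passing the test.

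Xbp1, a transcription factor of the unfolded protein response that is also induced by estrogen in human breast cancer cells, had ratios of -0.46 and -0.07. The mean was -0.27 ± 0.28 (SD, n = 2; limma over features, adjusted p = 0.550). Greb1, an estrogen-induced cofactor of the estrogen receptor in human breast cancer cells, was measured by 3 features. The first Greb1 feature gave -0.27 and 0.38, the second 0.02 and -0.32, and the third -0.31 and 0.09. All 3 had opposite signs on the arrays. The gene mean was -0.07 ± 0.17 (SD, n = 2), with an interval from -0.50 to 0.37 (limma over genes, adjusted p = 0.875). The Greb1 features lay closer to each other than the Esr1 features did on array 1 and farther apart than they did on array 2.

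The secreted signals were led by Wnt4, a Wnt ligand induced by progesterone that promotes side branching. Its ratios were -1.37 (array 1) and -0.38 (array 2), or 2.58-fold and 1.30-fold from an equal ratio. Wnt4 was low on both arrays, at percentiles 1.67 and 12.4, and had the lowest ratio of the 13 features on array 1. The mean was -0.88 ± 0.70 (SD, n = 2), with a limma 95% interval from -1.55 to -0.21, and it did not pass over features (limma, adjusted p = 0.125) or genes (limma, adjusted p = 0.0984). Over genes it passed with the arrays scaled to equal median absolute deviation (limma, adjusted p = 0.0472), after quantile normalization (0.0202) and when features whose arrays differed by more than 1 were dropped (0.00339). That filter lowers the estimated spread by construction, and Wnt4 lay just under its limit, with an array difference of 0.986. The scaling and the quantile normalization set the arrays to a common width by construction, where array 1 was the wider as deposited. In the 7 other settings that gave a test, the Wnt4 mean ran from -0.88 to -0.79, with adjusted p from 0.00339 to 0.113.

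Tnfsf11 encodes RANKL, the cytokine that carries the progesterone signal to progenitor cells. Array 1 gave a ratio of 0.14 and array 2 -0.22. The mean of -0.04 ± 0.25 (SD, n = 2) was the closest to 0 of the 10 genes, with an interval from -0.54 to 0.47 over features (limma, adjusted p = 0.953). The interval leaves room for changes of up to 0.54 on the negative side and 0.47 on the positive side. Of these paracrine signals, Wnt4 was thus negative on both arrays and Tnfsf11 had opposite signs, and the difference between them was not tested.

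Tph1 encodes tryptophan hydroxylase 1, the enzyme that starts serotonin synthesis outside the nervous system, and in the mammary gland serotonin is a local inhibitor of milk secretion. Its ratios were -1.03 (array 1) and -0.19 (array 2). The value on array 1 was 2.05-fold from an equal ratio and lay at percentile 3.77, and that on array 2 lay at percentile 29.5. The mean was -0.61 ± 0.60 (SD, n = 2), and Tph1 did not pass over features (limma, adjusted p = 0.236) or genes (limma, adjusted p = 0.189). Of the settings run, it passed over genes only when features whose arrays differed by more than 1 were dropped (limma, adjusted p = 0.0314), a filter that lowers the estimated spread by construction.

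**Figure D2:**
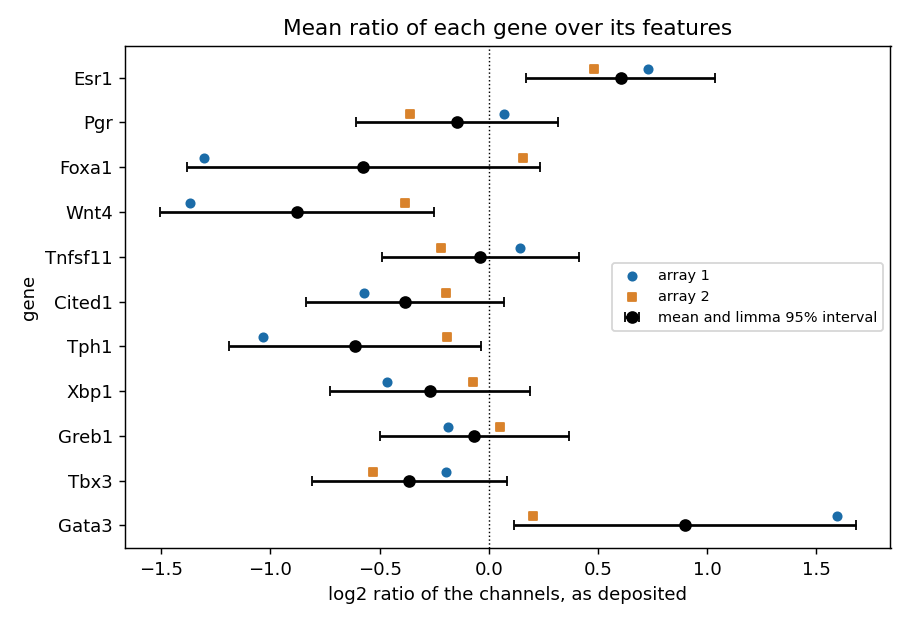
Log2 ratio of each gene, averaged over its features, on array 1 (blue circles) and array 2 (orange squares), with the mean over arrays and its limma 95% interval in black. The unadjusted intervals of Esr1, Wnt4, Tph1 and Gata3 exclude 0, and none of these genes passed after adjustment over all genes. The intervals use a spread drawn largely from all genes together.

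Each of the 13 features differed between the arrays by more than the median feature did, at percentiles from 53.2 to 98.9 of that difference. The median absolute difference was 0.43 over the 13 features and 0.31 over all features. For the second Esr1 feature it was 1.62 and exceeded that of 98.9% of all features, and for the first Esr1 feature it exceeded that of 95.5%. Wnt4 stood at percentile 93.1 on this measure and Tph1 at percentile 89.5. For Tbx3, Greb1 (second feature) and Tnfsf11 it stood between percentiles 53.2 and 56.3, close to the middle of the array. The 5 features farthest from 0 on array 1, both of Esr1 and those of Wnt4, Foxa1 and Tph1, were also the 5 on which the arrays differed most.

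**Figure D3:**
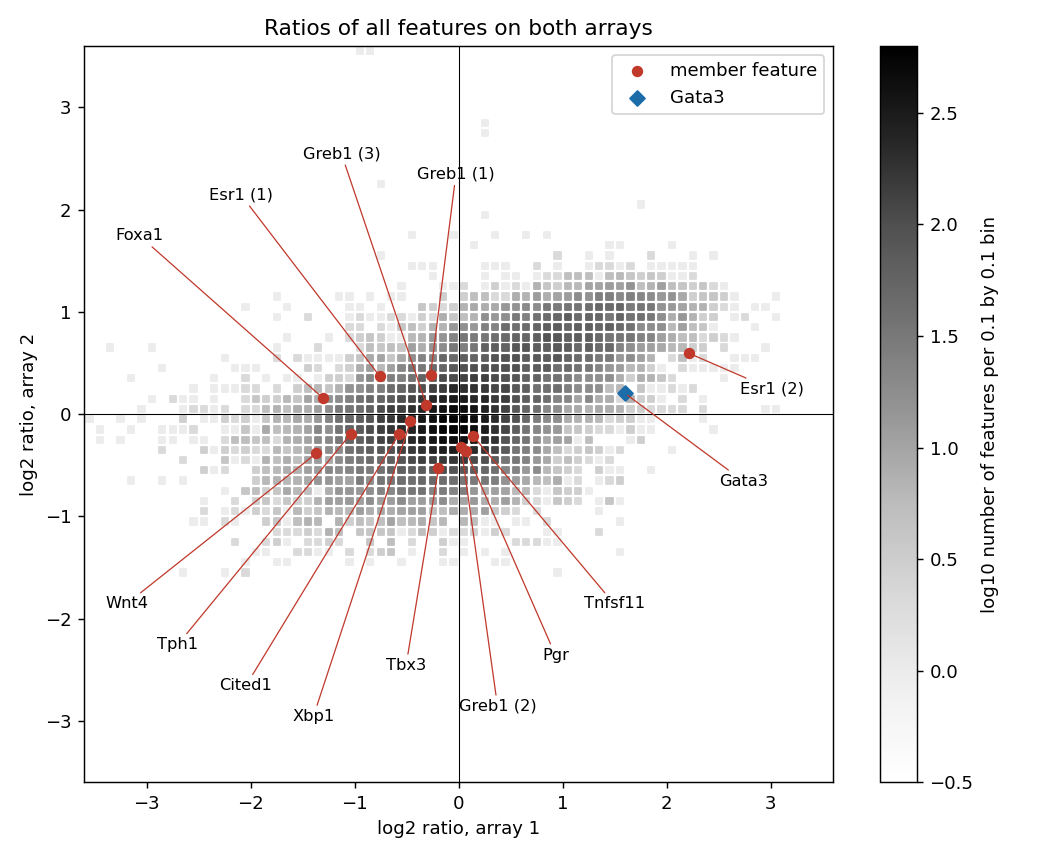
Log2 ratio on array 1 against array 2 for all 38976 features, shown as grey bins of 0.1 by 0.1, with the 13 features of the hormone-sensing genes in red and Gata3 as a blue diamond. Wnt4 and Tph1 lie where both ratios are negative and the second Esr1 feature lies where both are positive, while Foxa1 and the first Esr1 feature lie left of 0 with positive values on array 2.

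Of 12 other genes of hormone-sensing luminal cells, 7 were measured, and 0 of these passed the gene test in either direction, against 8.26% of all genes. At an unadjusted p under 0.05 there were 3 of 7 (limma), against 23.8% of all genes. Tfap2c, an AP-2 transcription factor, had ratios of -1.51 and -0.62, the mean of 4 features (limma, adjusted p = 0.0515). Tfap2c passed in 5 of the other settings, with limma adjusted p from 7.27e-04 to 0.0486. The lowest was that with features whose arrays differed by more than 1 dropped, the filter that lowers the estimated spread. Msx2, a homeobox factor, gave -0.91 and -0.35, and Stc2, a secreted glycoprotein, gave 0.91 and 0.28. The 2 features of Stc2 differed, with means of 1.223 and -0.034. Ccnd1, the cell cycle regulator cyclin D1, was near 0 at -0.05 and -0.07 as the mean of 3 features of unlike sign. Its feature with the largest absolute mean averaged 0.381 and that with the smallest -0.235. In all, 3 of these 7 genes were negative on both arrays (34.1% of all genes), 1 was positive on both (33.7%) and 3 had opposite signs (32.0%). The list's medians were -0.34 on array 1 and 0.02 on array 2, beside -0.33 and -0.19 for the 10 members and 0.01 and -0.01 for all genes.

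Of the receptors and partners of the secreted signals, 12 genes were measured. Positive on both arrays were 7 of them (33.7% of all genes), and 3 were negative on both (34.1%). The list's medians were 0.20 and 0.35. The olfactory receptor genes, 64.7% of them positive on both arrays, had medians of 0.51 and 0.42. The difference of the list from all genes was not tested. The Wnt receptor Fzd1 had ratios of 2.73 and 0.98, a mean of 1.86 ± 1.24 (SD, n = 2), and was the only gene of the list to pass over all genes (limma, adjusted p = 0.0399). The Fzd1 call was lost when each gene was represented by its feature with the largest absolute mean (limma, adjusted p = 0.0521). Fzd1 itself has 1 feature, so its mean was unchanged there. The serotonin receptors Htr1b (0.71 and 0.68; limma, adjusted p = 0.0613) and Htr7 (0.93 and 0.45; adjusted p = 0.0900) were positive on both arrays without passing, and passed in 4 and 3 of the other settings. So was Tnfrsf11b, the decoy receptor of RANKL, at 0.39 and 0.47. Further genes of the same list were named after their values were seen, for their direct link to the members. Tnfrsf11a, the signalling receptor of RANKL, gave 0.38 and -0.49, and the Wnt co-receptor Lrp5 gave -0.82 and -0.28. Tph2, the neuronal counterpart of Tph1, gave 0.18 and -0.50.

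Among relatives and coregulators of the estrogen receptor, 10 of 14 genes were measured, with medians of -0.05 and -0.01. Positive on both arrays were 2 of the 10 (33.7% of all genes), and 5 were negative on both (34.1%). Esr2, which encodes estrogen receptor beta, had ratios of 1.42 and 1.16, a mean of 1.29 ± 0.19 (SD, n = 2), and passed over all genes (limma, adjusted p = 0.0336). Its ratio was thus at least 2-fold from 0 on both arrays, as for 2.15% of all genes, which neither Esr1 feature was. The orphan receptor Esrra gave -1.43 and -0.38, the acetyltransferase Ep300 -0.45 and -0.38, and the coactivator Ncoa2 0.23 and 0.24, none of which passed. Ncoa2 is the mean of 3 features, whose largest and smallest absolute means were those of features at 0.854 and -0.058.

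Of 10 listed relatives of Foxa1 and Tbx3 and genes of the Xbp1 pathway, 8 were measured. The listed relative of Tbx3, Tbx2, was not among them. Of the 8, 0 passed in either direction, against 8.26% of all genes. At an unadjusted p under 0.05 there were 2 (limma), against 23.8% of all genes. Dnajb9, a chaperone of the endoplasmic reticulum induced through Xbp1, had ratios of 0.62 and 0.66 (limma, adjusted p = 0.0774), and it passed in 3 of the other settings. Edem1, a degradation factor for misfolded proteins, gave 0.32 and 0.48 as the mean of 3 features. Its feature with the largest absolute mean averaged 1.353 and that with the smallest 0.094. Pdia4, a disulfide isomerase, gave -0.85 and -0.23, and Foxa2 -0.70 and -0.11. In this list 4 of 8 genes were negative on both arrays (34.1% of all genes), 2 were positive on both (33.7%) and 2 had opposite signs (32.0%). The list's medians were -0.012 and -0.003. Xbp1 and Pdia4 were thus negative on both arrays, while Dnajb9 and Edem1 were positive on both. Other genes of the pathway, named after their values were seen, were Hspa5 (-0.018 and 0.183), Hyou1 (-0.003 and 0.103) and Ern1 (-0.007 and -0.111).

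Markers of the other cells of the gland were measured on the same arrays. For comparison with the counts of each list, 34.1% of all genes were negative and 33.7% positive on both arrays. General luminal markers had medians of -0.04 and 0.04, with 4 of 8 negative and 3 positive on both arrays. There the surface protein Cd24a passed at 1.07 (limma, adjusted p = 0.0336), and the keratins Krt8 (-0.62) and Krt18 (-0.62) and the cadherin Cdh1 (0.40) did not. Luminal progenitor and alveolar markers had medians of 0.13 and -0.02, with 3 of 9 negative and 3 positive on both, and Aldh1a3 (1.29; limma, adjusted p = 0.0336) and Csn3 (0.93; adjusted p = 0.0367) passed, Csn3 not with the feature of largest absolute mean taken for each gene (0.0517). Csn3 itself has 1 feature, so its mean was unchanged there. Cd14 (-0.62) and the milk protein gene Lalba (-0.31) did not pass. In the basal list, with medians of -0.08 and -0.17, 4 of 7 genes were negative on both arrays, and Krt5 passed at -0.97 (limma, adjusted p = 0.0494) while Krt14 at 0.81, Acta2 at -0.15 and Krt17 at -0.29 did not. Krt14 passed in 4 of the other settings. The Krt5 call was lost with a robust prior (limma, adjusted p = 0.0536). It was also lost when every gene was represented by its feature of largest (0.0627) or smallest absolute mean (0.0552). Krt5 has 1 feature, so its mean was unchanged in these settings.

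Adipocyte markers were negative on both arrays in 5 of 8 genes, positive on both in 1 and of opposite sign in 2, with a median of -0.86 on array 1 and -0.08 on array 2. Lep, which encodes leptin, was positive at 0.49 and 0.66, while Adipoq stood at -1.74 and -0.41, Cd36 at -1.22 and -0.28 and Car3 at -1.77 and -0.15. Fabp4 (-0.904 and 0.997) and Lpl (-0.23 and 0.70) had opposite signs and were named after their values were seen. Fibroblast markers were negative on both arrays in 5 of 7 genes and of opposite sign in 2, with medians of -0.66 and -0.11. Among them Fn1 stood at -0.45 and -0.51, Mmp2 at -0.47 and -0.21, Dcn at -0.66 and -0.20 and Pdgfra at -0.13 and -0.11. The collagen genes differed more between the arrays, Col1a1 at -1.785 and -0.073, Col1a2 at -1.933 and 0.164 and Col3a1 at -1.774 and 0.065. They were named after their values were seen. Of either list 0 genes passed, against 8.26% of all genes. At an unadjusted p under 0.05 there were 4 of 8 adipocyte and 2 of 7 fibroblast genes (limma), against 23.8% of all genes. On array 1 the medians of both lists were low, as were the ratios of Wnt4, Foxa1 and Tph1, and their part in the members' ratios was not tested. Endothelial markers had medians of -0.03 and -0.07, with 3 of 5 negative and 2 positive on both arrays, and 0 passed (limma, 3 at an unadjusted p under 0.05). Kdr had a mean of 0.61, Tek of 0.50, Cldn5 of -0.56 and Pecam1 of -0.17.

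Leukocyte markers had medians of -0.11 and 0.18 over 7 genes, with 3 negative and 3 positive on both arrays. Cd3g, a chain of the T cell receptor complex, passed at 0.89 (limma, adjusted p = 0.0428). Cd3g has 1 feature and kept this mean when every gene was represented by a single feature. Its call was lost there, with the feature of largest (limma, adjusted p = 0.0581) or smallest absolute mean (0.0503) taken. Cd3e, another chain of that complex, named after its values were seen, was negative at -0.53 and -0.17. Adgre1, a macrophage surface protein, did not pass at 0.90 (limma, adjusted p = 0.0512) and passed in 5 of the other settings. Itgam, an integrin of myeloid cells, gave -0.54 and -0.77, and the B cell receptor component Cd79b gave -0.48 and -0.26. Defining markers cannot be called present or absent here, since ratios alone were used here.

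**Figure D4:**
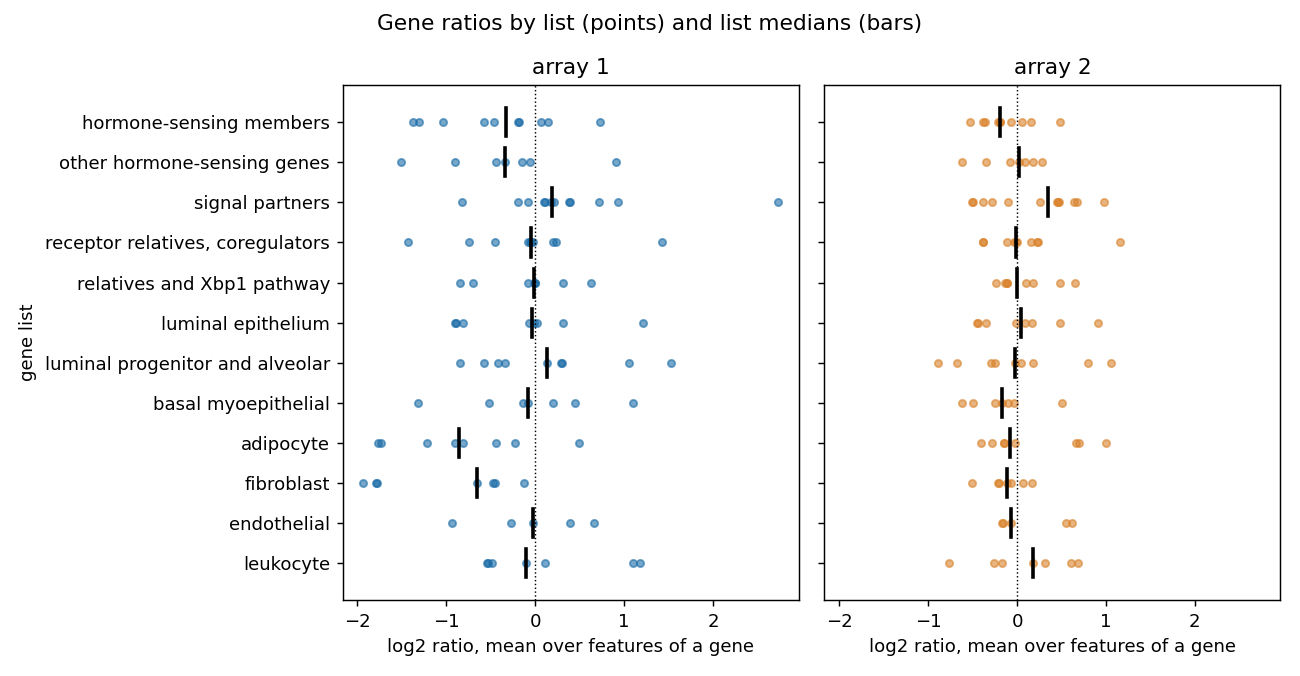
Log2 ratio of each measured gene on array 1 (left) and array 2 (right) by list, with 1 point per gene and a black bar at the list median. Medians spread from -0.86 (adipocyte) to 0.20 (signal partners) on array 1, and from -0.19 (hormone-sensing members) to 0.35 (signal partners) on array 2.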

How the data were processed

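The deposited values are log2 ratios (the log base was inferred from their range) of the channels of 2 arrays. Per the labels and the series' design text, Trizol RNA was labelled with Cy5 (het) and Cy3 (null), and each array was normalized by the authors with print-tip lowess in Acuity 4.0. How background was corrected or spots filtered is not stated there. No value among the 38976 features was missing, so none was dropped or imputed, and 0 columns were left unused. The platform annotation gave 22973 features 1 symbol, 16003 none and 0 several. All 22973 were matched by Entrez ID to RefSeq genes of GRCm38.p6.

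The main test was limma 3.58.1 (R 4.3.3) of the mean ratio against 0 (intercept alone, default empirical Bayes prior, two-sided, Benjamini-Hochberg over all features or all genes, threshold 0.05). The features of a gene were averaged for the gene fit. The arrays leave 1 residual degree of freedom, and the prior added 5.32 for features and 5.41 for genes. Tested on simulated data of 38976 features, the fit called 3 of 50 features at a planted log2 ratio of 1, 44 of 50 at 2, 50 of 50 at 3 and at 4, and 14 of 38776 unchanged ones. Signal over background was not used here, and precision is limited by having 2 arrays.

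The members and lists were chosen with earlier results of these data known. Besides Gata3 and the 10 members, up to 4 genes of each of 11 lists (88 of 105 genes measured) were named: those past the gene test, then those with the same sign on both arrays and the largest smaller absolute ratio. Counts and medians cover whole lists. Tnfrsf11a, Lrp5, Tph2, Cd3e, Fabp4, Lpl, Col1a1, Col1a2, Col3a1, Hspa5, Hyou1 and Ern1 belong to these lists and their counts. They were named after their values were seen. The olfactory receptor genes, outside the lists, were also added after their values were seen. Alternatives were median subtraction, scaling to equal median absolute deviation, quantile normalization, a robust prior, a filter on features differing by over 1 between arrays, an adjusted p of 0.1, other choices of a gene's feature and leaving out an array. Figures were drawn with matplotlib 3.10.9.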

Additional observations from a re-analysis of the deposited data

How the results depend on the processing

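Of all features 0 passed limma's test as reported, and this count became 2724 with each array's median subtracted, 5014 with equal median absolute deviation, 5121 after quantile normalization, 7452 with features whose arrays differed by more than 1 dropped and 4929 at an adjusted p of 0.1. The count of 1244 of 15056 genes became 2052, 2391, 2815 and 2113 under the last 4 of these settings. The filter on differing arrays left 36399 features and 14418 genes to test, and the other settings kept 38976 and 15056. Of the hormone-sensing genes, 2 (Esr1 and Wnt4) passed with equal median absolute deviation, 1 (Wnt4) after quantile normalization, 2 (Wnt4 and Tph1) of the 8 left by the filter on differing arrays, which drops Foxa1 and both Esr1 features, and 2 (Esr1 and Wnt4) at an adjusted p of 0.1. The member features past the test numbered 1 (Esr1), 2 (Esr1 and Wnt4), 2 (Wnt4 and Tph1) of 10 and 1 (Esr1) in the same order. These member counts rose in settings where the counts over the whole array rose too, and they are to be read beside those counts. The shares were not compared by a test. Gata3 passed over genes after quantile normalization (limma, adjusted p = 0.0490). Taking the feature with the smallest absolute mean turned Esr1 to -0.194, Greb1 to 0.056, Stc2 to -0.034 and Ncoa2 to -0.058, and the feature with the largest turned Ccnd1 to 0.381. Equal median absolute deviation and quantile normalization set the arrays, with deposited SDs of 0.67 and 0.44, to a common width by construction. There the Wnt4 mean was -0.785 and -0.792, against -0.877 in the main fit. Beyond these constructions and that of the filter, the cause of these changes was not tested. With 1 array left out there is no test, and the ratio ran from -1.30 to 0.15 for Foxa1, from -0.187 to 0.053 for Greb1, from -0.360 to 0.069 for Pgr, from -0.22 to 0.14 for Tnfsf11, from -0.491 to 0.384 for Tnfrsf11a, from -0.501 to 0.181 for Tph2, from -0.904 to 0.997 for Fabp4 and from -0.227 to 0.700 for Lpl. Median subtraction, a robust prior and the feature with the largest absolute mean left 0 member genes past the test. The test of the ratios is itself paired, since het and null RNA were compared within each array, and the labels give no numbers for a further replicate block. Of the 7 list genes that passed, 4 lost the call in at least 1 setting, while Esr2, Cd24a and Aldh1a3 passed in each setting run with a test. Apart from the collagen genes, Hspa5, Hyou1 and Ern1, the other named list genes numbered 43. Of these, 22 passed in at least 1 setting, Tfap2c and Adgre1 in 5. These genes were named from their ratios in the same data, so this count does not describe the lists. For Tfap2c, Adgre1, Htr1b, Htr7, Dnajb9 and Krt14 the settings passed include the filter on differing arrays, which lowers the estimated spread by construction. Having 2 arrays limits what can be called.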
